A study of Mus musculus with 63 samples.

Results

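The ribosomal protein genes encode the proteins of the cytoplasmic ribosome, and they were followed here across mouse keratinocytes that differed in EGFR genotype, v-rasHa and EGFR kinase inhibitor. Members were all probes whose array symbol began with Rpl or Rps followed by a digit, together with Rplp0, Rplp1, Rplp2 and Rpsa, without the Rps6 kinases and the pseudogenes. The rule found 87 probes for 53 genes among 28049 probes and 14541 named genes. Of these genes, 31 belong to the large and 22 to the small subunit, and they lie on 17 chromosomes. Rpl13a had 22 probes and 41 genes had 1 probe each. In all, 73 of the 87 probes had a value on each of the 63 arrays, and the member probe with the fewest had 55. Rpl5, Rps27, Rps27a, Rpl22 and Rpl10 were not analysed here.

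Ribosomal proteins coat the ribosomal RNA of a small subunit, which reads the mRNA, and a large subunit, which joins amino acids. Their mRNAs are among the most abundant of a growing cell, and many begin with a C and a run of pyrimidines, the terminal oligopyrimidine tract, through which mTOR signalling downstream of growth factor receptors controls their translation. Several members also have roles away from the ribosome, such as the binding of Mdm2 by Rpl11.

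All samples were primary keratinocytes from the skin of newborn CD-1 mice. EGFR knockout (KO) cells gave 5 samples with v-rasHa and PD153035, 4 with v-rasHa and erlotinib, 6 with v-rasHa and AG1478, 5 with v-rasHa alone and 3 mock samples. Wild-type (WT) cells gave 5 samples each with v-rasHa and PD153035, erlotinib or AG1478, 5 with v-rasHa alone, 5 mock samples with each inhibitor and 4 mock samples without. The viral Harvey ras oncogene was brought in with supernatant of Psi-2 packaging cells and the cells were kept for 4 days. Each inhibitor was given at 1 µM for 2 h, so that doses and times were matched. The labels do not say which part of Egfr is missing in KO cells, how the mock cells without inhibitor were handled, or which animals or cultures a repeat came from, although the design text speaks of biological replicates for most groups, so p-values measure the spread between these samples, which may in part be technical. Inhibitors were not given to KO mock cells in these samples.

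Each array set 1 sample against a universal mouse reference RNA, a pool of mouse cell lines, in 2 colours, and all values below are log2 ratios of sample over that pool. A value of 1 is a 2-fold excess over the pool's own amount of the same mRNA, so values do not rank the genes by abundance. On 2 arrays, KO ras AG1478 repeats 3 and 4, the dye order in the labels went against the sign of the values, and the sign that matches the other arrays was used. The arrays fall into 8 runs of consecutive experiment numbers, whose meaning the labels do not give. WT mock, WT mock inhibitor and WT ras samples lay in runs 1 and 2, KO mock in run 4, erlotinib-treated ras cells in runs 5 and 6, PD153035-treated ras cells and AG1478-treated KO ras cells in run 8, AG1478-treated WT ras cells in runs 7 and 8 and KO ras cells without inhibitor in runs 3, 5 and 6. Keratinocyte markers exceeded markers of the pool's other cell types on all arrays, by 1.57 to 6.51 between the medians of 25 and 19 genes. On KO ras AG1478 repeats 3 and 4 the excess was 4.16 and 4.80 with the sign used, and the labelled sign would make it a deficit. The Egfr probe with the higher ratios had 0.22 to 2.77 in 23 KO samples, with a median of 2.03, against 0.43 to 3.60 in 39 WT samples, with a median of 2.27. The other Egfr probe had −0.27 to 1.71 in KO samples, with a median of 0.42, against −0.29 to 3.32 in WT samples, with a median of 1.05. The genotypes overlapped at both probes. Where these lie relative to the missing part is not given, so they do not check the genotype. A probe was called where limma's test over all probes gave an adjusted p under 0.05 in a comparison.

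Of the 53 genes, 41 were matched to RefSeq promoters of mouse build GRCm38.p6. A tract, here a run of at least 6 letters of C or T that begins with C, lay within 15 bases of the annotated start in 22 of these 41 genes (53.7 percent), against 20 of 69 mitochondrial ribosomal protein genes (29.0 percent) and 6883 of 27025 genes in the table (25.5 percent). The motif CCGGAAG, searched on both strands from 250 bases before to 50 after the start, was present in 18 of the 41 (43.9 percent), in 26 of 69 mitochondrial ribosomal protein genes (37.7 percent) and in 9.9 percent of all genes. The windows below run from 15 bases before to 15 after the start, with the tract in capitals. They belong to 10 matched genes called in the comparisons between groups described further on. Rpl17, Rpl3 and Rps14, also called there, are not shown, so the 10 are not all the called genes. The windows are given so that the starts of these 10 genes can be compared, with and without a tract.
Rpl13a, chr7:45128731-45128760, minus strand: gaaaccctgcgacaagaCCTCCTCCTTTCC
Rpl22l1, chr3:28805493-28805522, plus strand: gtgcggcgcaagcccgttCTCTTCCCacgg
Rpl27a, chr7:109519180-109519209, plus strand: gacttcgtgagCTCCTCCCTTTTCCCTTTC
Rpl7a, chr2:26910792-26910821, plus strand: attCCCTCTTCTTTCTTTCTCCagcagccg
Rpl36a, chrX:134585639-134585668, plus strand: gtgcacccaggcaccgcctataaacttccg
Rpl23, chr11:97782425-97782454, minus strand: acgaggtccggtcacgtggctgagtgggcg
Rps3, chr7:99483695-99483724, minus strand: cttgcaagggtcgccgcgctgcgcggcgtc
Rpl37a, chr1:72711245-72711274, plus strand: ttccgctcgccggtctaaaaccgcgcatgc
Rplp0, chr5:115559452-115559481, plus strand: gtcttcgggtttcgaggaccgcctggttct
Rps28, chr17:33824548-33824577, minus strand: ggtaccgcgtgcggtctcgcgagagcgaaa
The windows of Rpl13a, Rpl22l1, Rpl27a and Rpl7a held a tract, which in Rpl13a and Rpl27a ran to the edge of the window, so that its full length is not given here. Those of Rpl36a, Rpl23, Rps3, Rpl37a, Rplp0 and Rps28 held none, which says only that these letters were absent from these windows.

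Ribosomal protein mRNAs were in excess over the reference pool in these keratinocytes whatever the genotype, ras or inhibitor. The mean ratio over the 13 groups was above 0 for 47 of the 53 genes, and above 0 in every single group mean for 38. The median of the gene means was 0.94, with quartiles of 0.48 and 1.21, whereas 48.7 percent of all named genes had a mean above 0. On each array 39 to 48 of the genes were above 0, and the array's median over the genes lay between 0.48 and 1.51. The 31 large-subunit genes had a median of 0.90 and the 22 small-subunit genes of 1.02. In such bulk RNA, fewer cells of a type and less RNA per cell cannot be told apart.

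**Figure D1:**
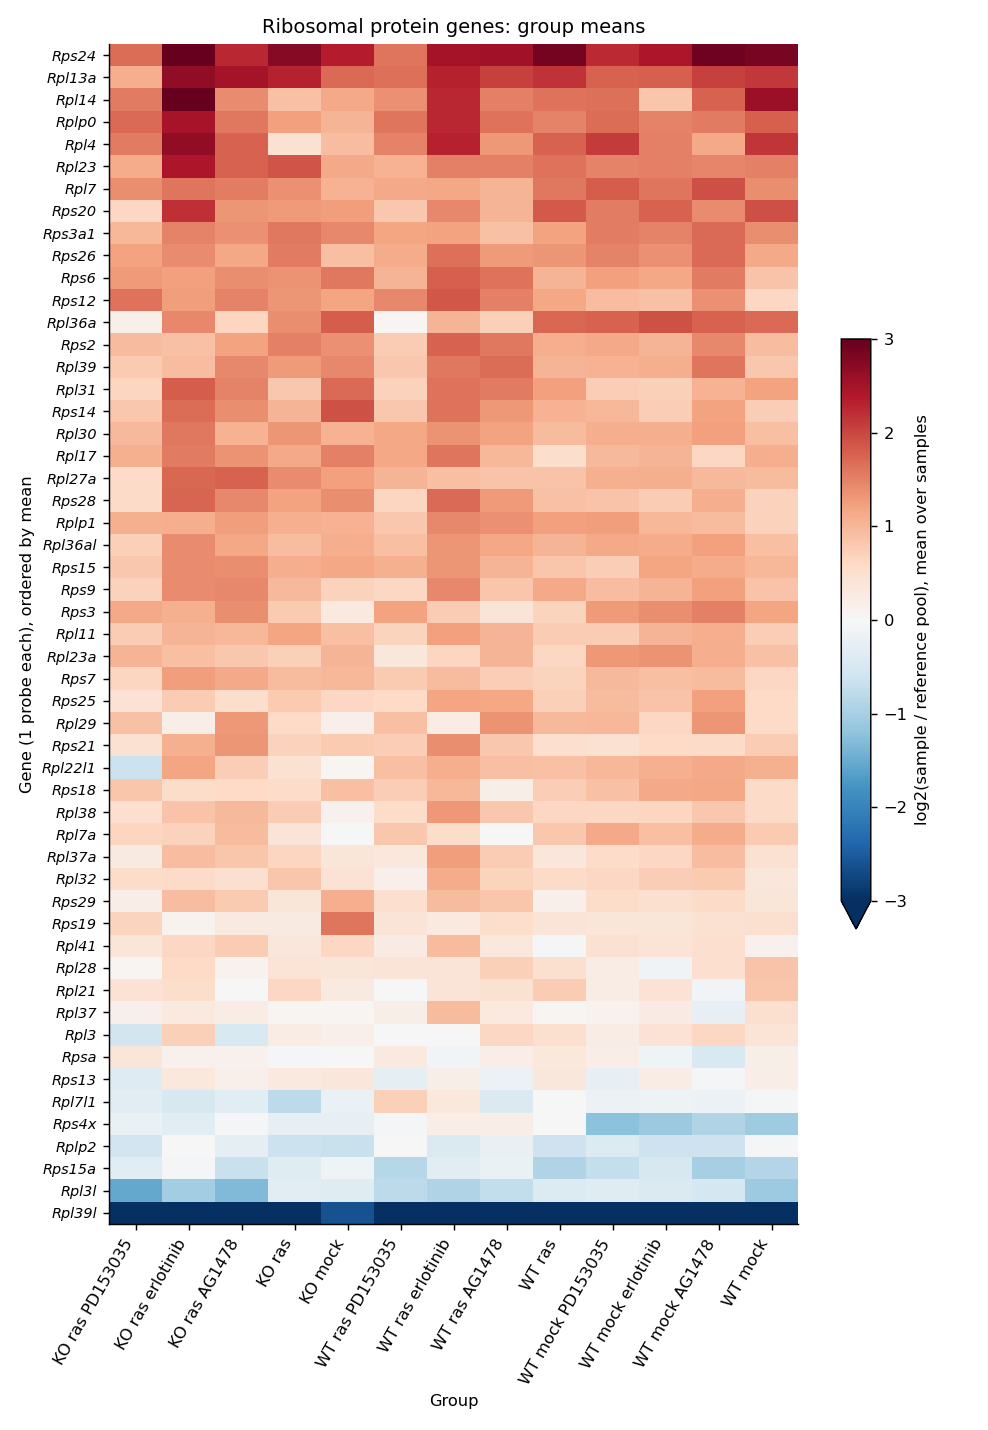
Mean log2 ratio of sample over reference pool for 53 ribosomal protein genes (rows, 1 probe each, ordered by mean) in the 13 groups (columns); red is above and blue below the pool, and the scale ends at −3. Red fills most of the map, and Rpl39l at the bottom is below the pool in all groups.

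Among small-subunit members, Rps24 had the largest excess, with a mean ratio of 2.49 for the probe with most values. Its values ran from 0.63 to 4.73 over the samples with a median of 2.48, and a second Rps24 probe averaged 0.92 over the samples both measured. Rps6, the target of the S6 kinases downstream of mTOR, averaged 1.31 and was above 0 in 62 of 62 samples, from 0.38 to 2.46. Rps3, at the mRNA entry of the small subunit, averaged 1.01, and Rps18, often used as a reference gene, 0.76. Rpsa, also known as a laminin receptor, was close to the pool with 0.09 and 0.21 at its probes. Rps15a at −0.53 and the X-linked Rps4x at −0.39 were the small-subunit genes with means below 0.

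Among large-subunit members, the 22 Rpl13a probes averaged 0.59 to 2.12, and the one drawn in the map of group means 2.01. Rpl11, an Mdm2-binding protein next to the large subunit's 5S RNA, averaged 0.94, and Rpl32 0.60. The stalk that recruits elongation factors is made of Rplp0, Rplp1 and Rplp2, and these differed in their ratios. Rplp0 averaged 1.65 and 1.75 at its probes and Rplp1 1.10 and 1.14, while Rplp2 averaged −0.40 and was above 0 in 12 of 62 samples. Each ratio is set against the pool's own amount of that mRNA, so these figures do not give the make-up of the stalk.

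The genes with the lowest ratios included relatives of ribosomal proteins that are known from other tissues. Rpl39l, a testis relative of the exit-tunnel protein Rpl39, ran from −6.26 to −0.66 with a median of −3.96, against 0.21 to 2.48 with a median of 1.15 for Rpl39, and was below it in 62 of 62 samples. The pool contains a testis line. Rpl3l, a relative of Rpl3 known from striated muscle, had a median of −0.70 against 0.18 for Rpl3 and was below it in 48 of 58 samples. Rpl7l1 had a median of −0.20 against 1.53 for Rpl7 and was below it in 59 of 62 samples. For Rpl36al and Rpl36a the order was not stable, with medians of 1.04 and 1.50 and the relative below in 34 of 62 samples.

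**Figure D2:**
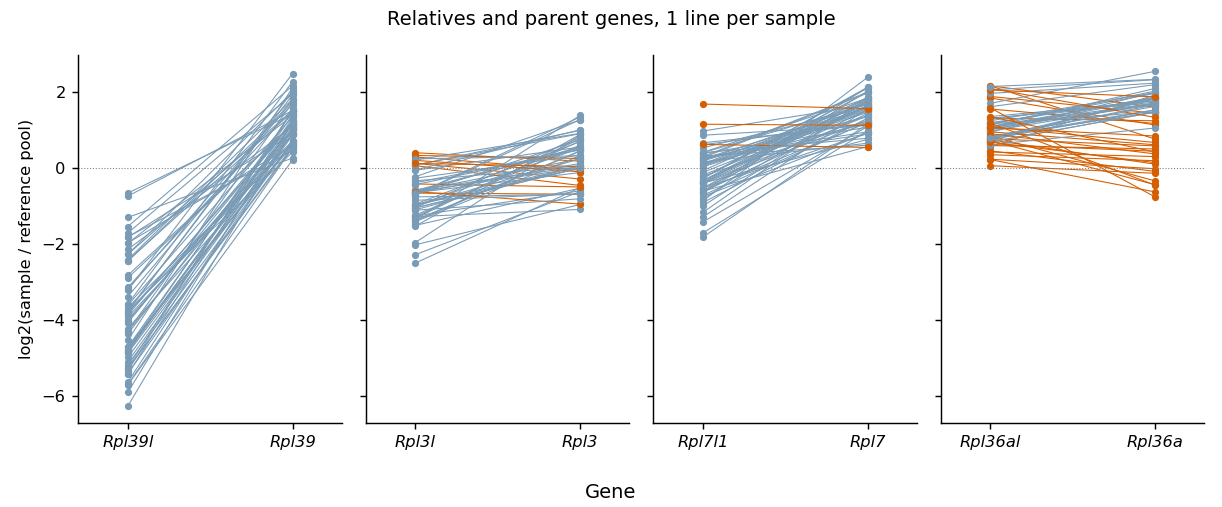
Log2 ratio of sample over reference pool for 4 relatives (left of each panel) and their parent genes (right), with 1 line per sample; orange lines mark samples in which the relative was not below the parent. All lines rise from Rpl39l to Rpl39, whereas those of Rpl36al and Rpl36a cross.

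The members differed in how far they moved between groups. The range of the 13 group means had a median of 1.01 over the genes, against a median SD within groups of 0.49, and in 30 of 53 genes it exceeded 2 pooled SDs. Rpl39l had the widest range at 2.40, followed by Rpl14 at 2.33, the exit-tunnel protein Rpl4 at 2.21, 1 of the Rpl23 probes at 2.03 and 1 of the Rplp0 probes at 1.85. The last 4 were highest in KO ras erlotinib. Rpl39l and Rpl14 also spread widely within groups, with pooled SDs of 1.41 and 1.01. In limma's F test over the 13 groups these 2 were not called (adjusted p of 0.628 and 0.115), whereas the Rpl4, Rpl23 and Rplp0 probes were. The narrowest ranges were those of Rpl11 at 0.57, Rps7 at 0.63 and Rplp2, Rps15 and Rpl30 at 0.68. KO ras PD153035 held the lowest group mean of 14 genes, WT ras PD153035 of 8 and KO mock of 7, while KO ras erlotinib held the highest of 16 and WT ras erlotinib of 13. Neither these counts nor that of the 30 genes was taken over all genes, and a range over 13 means arises from spread alone. They describe the members and show nothing particular to them.

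Different probes of 1 gene did not always move together. Over the samples, with group means included, the correlation between probes of a gene ran from −0.15, between 2 of the 3 Rpl27a probes, to 0.53, between 2 of the 3 Rpl23 probes, across the genes other than Rpl13a. Of the 22 Rpl13a probes, 21 correlated at 0.38 to 0.88 with each other, with a median of 0.69 over 210 pairs, and the remaining one at 0.33 to 0.63 with them. These correlations share arrays and runs and describe the measurement only. Whether the 22 probes carry the same oligonucleotide is not given, so Rpl13a counts as 1 gene below and its median over the 22 probes is used as its value in a sample. The SD over the 22 probes within a sample was 0.20 to 0.73, with a median of 0.40.

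The per-sample median over the 53 genes showed how far the whole set moved. It averaged 0.70 ± 0.15 in KO ras PD153035 (SD, n = 5), 1.08 ± 0.35 in KO ras erlotinib (n = 4), 0.96 ± 0.37 in KO ras AG1478 (n = 6), 0.80 ± 0.27 in KO ras (n = 5) and 0.80 ± 0.04 in KO mock (n = 3). In WT cells it averaged 0.67 ± 0.18 in ras PD153035, 1.17 ± 0.32 in ras erlotinib, 0.83 ± 0.23 in ras AG1478, 0.77 ± 0.22 in ras (n = 5 each) and 0.80 ± 0.09 in mock (n = 4). In WT mock cells with an inhibitor it averaged 0.93 ± 0.08 with PD153035, 0.87 ± 0.02 with erlotinib and 1.01 ± 0.21 with AG1478 (n = 5 each). The ranges of the groups overlapped or touched, except that WT mock AG1478, at 0.85 to 1.37, lay just above KO mock, at 0.76 to 0.84. The medians also went with the run: the 7 samples of run 5 had 0.94 to 1.51 and the 4 of run 6 had 0.65 to 1.09, although both runs held KO ras, KO ras erlotinib and WT ras erlotinib. In the 3 samples of run 7 it was 0.94 to 1.06 and in the 2 WT ras AG1478 samples of run 8 it was 0.58, within 1 group. With run as a random block, the median difference over the 53 genes was 0.13 for erlotinib in KO ras cells, against 0.29 without the block. For erlotinib in WT ras cells it was 0.31, against 0.30 without. Where the groups compared share no run, the part of the run cannot be told apart.

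**Figure D3:**
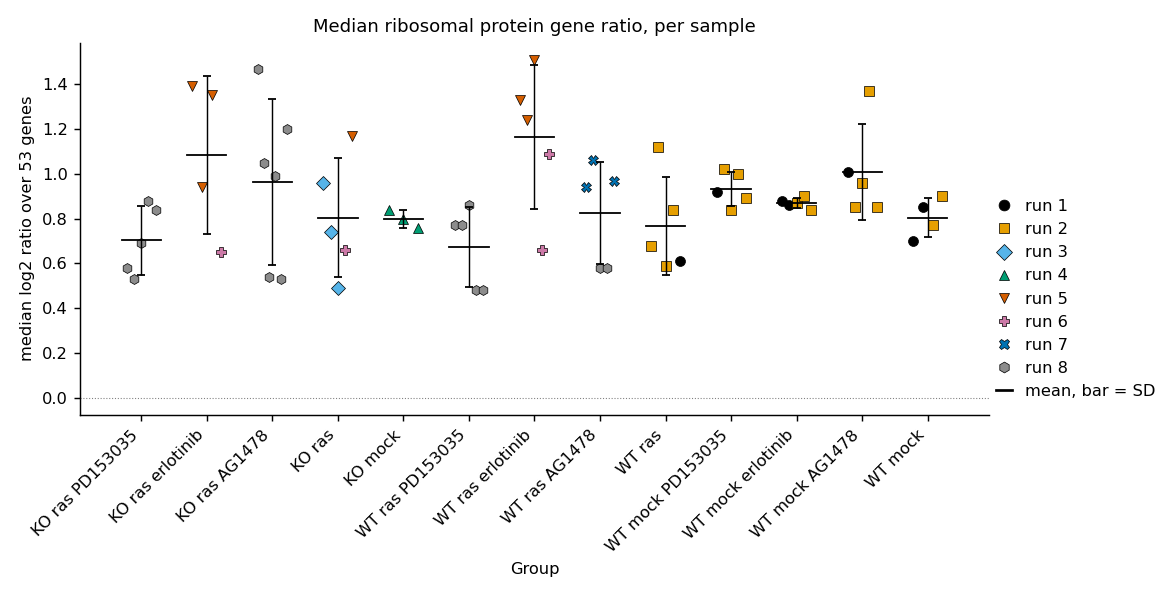
Median log2 ratio over 53 ribosomal protein genes in each of the 62 samples (points, shape and colour by run), with the group mean and SD as bars. The highest value, 1.51, belongs to run 5, the samples of run 6 lie between 0.65 and 1.09, and those of run 8 spread from 0.48 to 1.47.

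Among the 13 groups, 32 of the 87 probes, for 16 genes, differed by limma's F test at the threshold. Of all 27244 probes tested, 25.1 percent did. At an unadjusted p under 0.05 by that test there were 46, for 25 genes, against 39.9 percent. Of the 32, 17 were Rpl13a probes, and without that gene 15 of 65 were called, or 23.1 percent. The 32 became 3 with run as a random block and 9 with signs by label. Signs by label invert KO ras AG1478 repeats 3 and 4 against the signs used, which turns their excess of keratinocyte markers into a deficit. Most of the single comparisons below gave few or no calls. The median 95 percent confidence interval of a member's difference reached 0.61 to 0.77 to either side in the comparisons between 2 groups, so that smaller differences were mostly not detectable. Simulated data took each probe's spread pooled over the 13 groups, with independent values and no effect of run, and probes were changed in 1 comparison at a time. For PD153035 in KO ras cells, 19 percent of probes changed by 1 on the log2 scale were called and 72 percent of those changed by 2. There 4.21 percent of the calls were false. For the ras comparison in WT cells the shares were 5 and 70 percent, with 5.06 percent false. For AG1478 minus PD153035 in KO ras cells they were 17 and 85 percent, with 8.11 percent false.

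The first question was what v-rasHa does to these genes in either genotype. In WT cells, ras minus mock, no ribosomal protein probe was called by limma, against 0.183 percent of all probes, and 2 had an unadjusted p under 0.05, against 6.68 percent of all probes. The 53 genes had a median difference of 0.05, against 0.04 over all genes. In KO cells, 1 probe was called, against 0.539 percent of all probes called and 0.0892 percent called higher. At an unadjusted p under 0.05 by limma there were 19 probes, but for 3 genes, against 6.81 percent of all probes. The 53 genes had a median difference of 0.03, against 0.01 over all genes.

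The probe called in KO cells belonged to Rpl13a. It had 3.73, 2.62, 2.17, 1.60 and 2.96 in KO ras samples, against 1.67, 0.17 and 1.71 in KO mock samples. The groups overlapped, since KO ras repeat 4 lay below 2 of the mock samples, and 1 mock sample was far below the others. It was 1.48 ± 0.34 (SE) higher with ras, with an adjusted p of 0.0152 by limma. Of 10 fibroblast markers 1 was called lower in this comparison, Col1a2 at −2.69, and their median difference was −0.93, with 2 positive. Their part was not tested. All 22 Rpl13a probes had positive differences, with a median of 0.89. The samples compared share no run, so run and ras cannot be told apart, and with run as a random block no probe was called. No probe was called without KO ras repeat 1, and 3 were called without KO ras repeat 4. The difference between the ras effects of the 2 genotypes was tested as an interaction in limma. It was called for none of the 87 probes, against 0.0108 percent of all probes. There 11 probes, for 5 genes, had an unadjusted p under 0.05 by limma, against 5.9 percent of all probes.

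The second question was what the loss of EGFR does. Between KO and WT cells no ribosomal protein probe was called in mock cells, against 1.11 percent of all probes. There 18 probes, for 12 genes, had an unadjusted p under 0.05 by limma, against 17.7 percent. None was called in ras cells either, against 1.92 percent of all probes, with 6 at an unadjusted p under 0.05, against 16.8 percent. The median differences over the 53 genes were 0.06 in mock cells and 0.02 in ras cells, against 0.10 and 0.05 over all genes. After quantile normalization they were 0.33 in mock cells and 0.04 in ras cells. Rpl22l1, the paralog of the large-subunit protein Rpl22, had 0.00, 0.25 and −0.05 in KO mock samples, against 1.19, 1.14, 1.04 and 0.88 in WT mock samples. In ras cells it differed by −0.43. Its mock groups did not overlap, but the difference of −1.02 ± 0.36 had an adjusted p of 0.128 by limma, and neither the mock nor the ras samples of the 2 genotypes share a run.

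With an inhibitor present, 4 genes differed between KO and WT ras cells, which as a share of the 87 probes was 1.15 percent with PD153035, 1.15 percent with erlotinib and 2.3 percent with AG1478. These shares were near those over all probes, given below, so they show no result about the set as a whole. Rpl22l1 differed under PD153035, where it was the only one of the 87 probes called, against 1.38 percent of all probes called and 0.852 percent called lower. It had −0.77, −0.68, −0.70, −0.43 and −0.64 in KO samples, against 1.10, 0.99, 1.13, 0.57 and 0.70 in WT samples. Every KO value was below 0 and every WT value above 0. The difference was −1.54 ± 0.30, with an adjusted p of 0.00183 by limma. All 10 samples lie in run 8, and the call was kept when any sample was left out, with adjusted p values by limma of 0.00224 to 0.00969. Of 25 keratinocyte markers 1 was called, Epcam at −1.53, and their median difference was 0.61, whose part was not tested. All 22 Rpl13a probes were also lower in KO cells under PD153035, with a median of −0.63, and none of them was called. Of the 87 probes 14, but for 4 genes, had an unadjusted p under 0.05 by limma, against 10.4 percent of all probes.

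Under erlotinib, the Rpl23 probe with the widest range was called, against 0.945 percent of all probes called and 0.489 percent called higher. At an unadjusted p under 0.05 by limma there were 11 members, against 15.6 percent of all probes. Rpl23 is a large-subunit protein that in human cells binds Mdm2. The probe had 2.49, 2.82, 3.13 and 2.30 in KO samples, against 0.63, 2.00, 1.56, 0.92 and 0.48 in WT samples, without overlap. The difference was 1.58 ± 0.33 with an adjusted p of 0.00996 by limma. It was 1.42 within run 5 and 1.60 within run 6, and the call was kept with run as a fixed block (adjusted p of 0.00737 by limma) but not without KO ras erlotinib repeat 3 (1.45, adjusted p of 0.0538). It was also lost after quantile normalization (1.23, adjusted p of 0.0646) and with signs taken by label (1.59, adjusted p of 0.105), where the difference was as large. Of 25 keratinocyte markers 2 were called higher in KO cells, Trp63 at 3.22 and Itga6 at 1.46, with a median of 0.61. Of 7 melanocyte markers 6 were positive with a median of 1.20 and none was called. Their part was not tested. The other Rpl23 probes were not called.

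Under AG1478, Rps3 and Rpl7a were called, both higher in KO cells, against 2.22 percent of all probes called and 0.818 percent called higher, and 9 members had an unadjusted p under 0.05 by limma, against 15.4 percent. Rps3 had 1.88, 1.79, 0.40, 1.86, 1.10 and 1.36 in KO samples, against 0.32, 0.47, 0.87, 0.02 and 0.25 in WT samples. The groups overlapped through KO repeat 3, an array with disputed dye order, and the difference was 1.01 ± 0.26 with an adjusted p of 0.0217 by limma. Rpl7a, a large-subunit protein, had 0.96, 0.98, 0.99, 1.09, 0.73 and 0.98 in KO samples, against −0.41, −0.09, 0.53, 0.58 and −0.52 in WT samples. The groups did not overlap, and the difference was 0.95 ± 0.24 with an adjusted p of 0.0224 by limma. Without the arrays of disputed dye order Rpl7a had 0.93 and was not called (adjusted p of 0.0767 by limma), while Rps3 had 1.17 and was called. With signs by label, the differences were 0.25 for Rps3 and 0.24 for Rpl7a and neither was called. With run as a fixed block they were 0.90 and 0.40, and neither was called. Leaving out WT ras AG1478 repeat 1 also left no call, leaving out WT repeat 5 or KO repeat 1 or 2 left 1, and leaving out WT repeat 3 gave 4. Run 8 holds the KO samples and WT repeats 3 and 4, and within it the differences were 0.95 for Rps3 and 0.40 for Rpl7a. Of 25 keratinocyte markers 2 were called higher in KO cells, Itga6 at 1.17 and Dsg1a at 2.90, with a median of −0.11, and of 9 leukocyte markers 1 was called lower, Cd68 at −1.66. Their part was not tested.

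**Figure D4:**
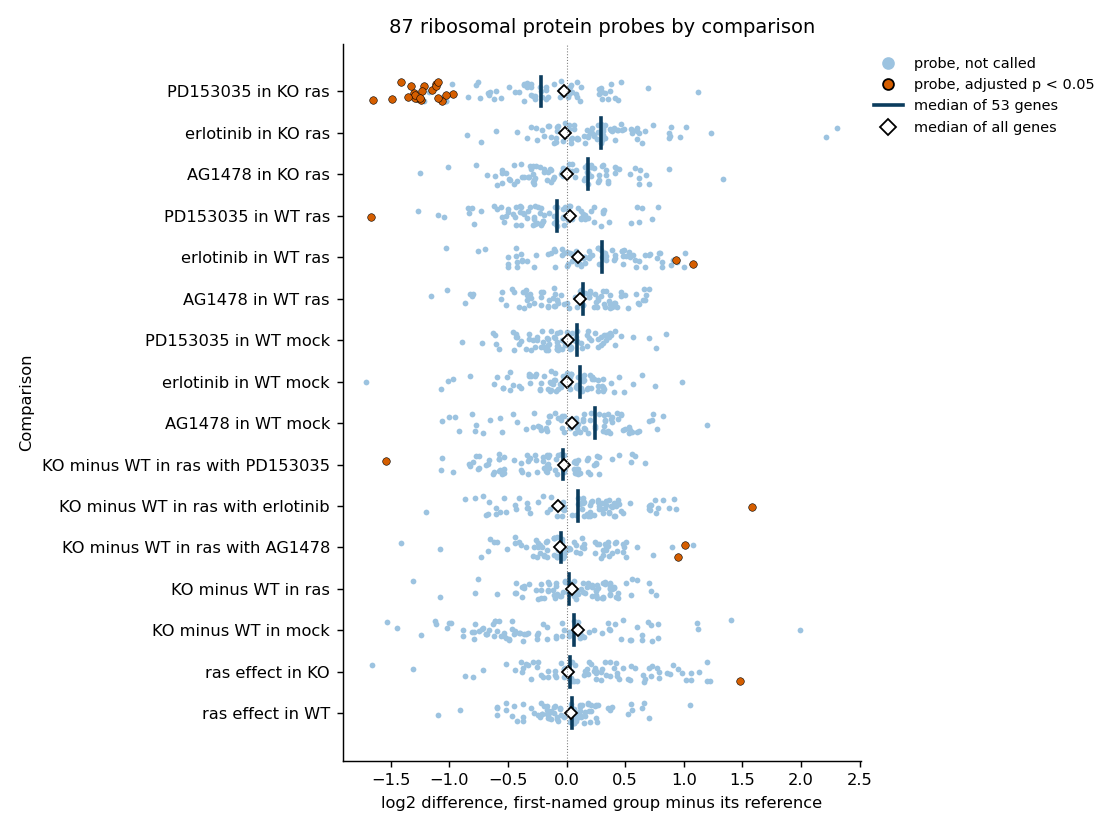
Log2 difference of each of the 87 ribosomal protein probes (points) in 16 comparisons (rows), with the first-named condition minus its control; orange points have an adjusted p under 0.05, bars are medians over 53 genes and diamonds medians over all genes. The 19 called Rpl13a probes form the cluster at the left for PD153035 in KO ras cells.

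The third question was what each inhibitor does within a genotype. In WT mock cells no ribosomal protein probe was called under any inhibitor by limma, and 0 percent of all probes were called. At an unadjusted p under 0.05 there were 6 with AG1478, against 6.47 percent of all probes, 4 with erlotinib, against 3.17 percent, and 1 with PD153035, against 3.41 percent. The median differences over the 53 genes were 0.24 with AG1478, 0.11 with erlotinib and 0.09 with PD153035, against 0.05, 0 and 0.01 over all genes. The treated samples and the controls of these comparisons share runs 1 and 2. Within run 1, with 1 or 2 treated samples against 2, the median differences were 0.12 with AG1478, 0.06 with erlotinib and −0.13 with PD153035, where the 22 Rpl13a probes had a median of −0.81. These values are not wholly within the run, since the control WT mock repeat 1 averages an array of run 1 and a reversed array of run 2. Within run 2 they were 0.16, 0.06 and 0.08 in that order, and the Rpl13a value with PD153035 was 0.05. Leaving out WT mock AG1478 repeat 4 lowered the AG1478 value to 0.09.

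In WT ras cells no member was called with AG1478, against 1.94 percent of all probes, with 8 at an unadjusted p under 0.05 by limma, against 17.1 percent, and the treated and untreated samples share no run. With erlotinib, 2 of the 87 probes were called, both higher, against 3.4 percent of all probes called and 2.27 percent called higher, so that the share was near the background. At an unadjusted p under 0.05 by limma there were 16, against 18.3 percent. Rpl17, at the exit of the peptide tunnel, had 1.62, 2.45, 1.76, 1.36 and 0.83 at the called probe with erlotinib, against 1.06, 1.27, 0.22, 0.10 and 0.00 without. The groups overlapped, and the difference was 1.08 ± 0.28 with an adjusted p of 0.0233 by limma. The other Rpl17 probe correlated with this one at −0.03 over the samples. Rpl37a, a large-subunit protein, had 1.53, 1.39, 1.44, 1.50 and 0.45 with erlotinib, against 0.07, 0.75, 0.08, 0.61 and 0.16 without. Its groups overlapped through erlotinib repeat 5, and the difference was 0.93 ± 0.28 with an adjusted p of 0.0495 by limma. Over the 53 genes the median difference was 0.30, against 0.10 over all genes. The groups share no run, so run and erlotinib cannot be told apart, and with run as a random block neither gene was called, at differences of 1.09 for Rpl17 and 0.84 for Rpl37a. Leaving out WT ras repeat 3 or 5 or erlotinib repeat 2 or 3 left 0 calls, leaving out WT ras repeat 1 or 4 or erlotinib repeat 1 left 1, and leaving out WT ras repeat 2 or erlotinib repeat 5 gave 4.

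With PD153035 in WT ras cells, 1 of the 87 probes was called, against 0.66 percent of all probes called and 0.197 percent called lower, with 12 at an unadjusted p under 0.05, against 12.2 percent. It belonged to Rpl36a, an X-linked large-subunit gene. Rpl36a had −0.45, 0.67, −0.44, 0.14 and 0.37 with PD153035, against 1.53, 1.73, 1.85, 2.02 and 1.48 without, and the groups did not overlap. The difference was −1.67 ± 0.39 with an adjusted p of 0.0248 by limma. Rpl36a also went with the run: in WT ras AG1478 cells it had −0.02 and −0.76 in run 8, against 1.87, 0.84 and 1.62 in run 7. PD153035-treated cells lie in run 8 and their controls in runs 1 and 2. With run as a random block the difference was −1.20 and not called, and it was not called either without WT ras repeat 4 or 5 or PD153035 repeat 1 or 3. Without WT ras repeat 1 there were 2 calls.

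In KO ras cells the receptor that the 3 inhibitors are known for is labelled as knocked out. With AG1478 no member was called, against 0.225 percent of all probes, with 11 at an unadjusted p under 0.05 by limma, against 14.1 percent. Over the 53 genes the median difference was 0.18, against 0 over all genes, and the samples compared share no run. With signs by label, which inverts 2 of the 6 AG1478 samples, the median was −0.39 and 12 probes were called. With erlotinib no member was called, against 0.0543 percent of all probes, with 9 at an unadjusted p under 0.05 by limma, against 11.8 percent. There the median difference was 0.29 against −0.01 over all genes, and 38 of 53 genes had positive differences. Within the runs that hold both groups it was 0.01 in run 5, with 3 samples against 1, and −0.11 in run 6, with 1 against 1. With run as a block it was 0.13 (random) and 0.08 (fixed).

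PD153035 in KO ras cells gave more calls among the members. Of the 87 probes 21 were called, all of them lower, against 4.83 percent of all probes called and 2.24 percent called lower. At an unadjusted p under 0.05 by limma there were 32 probes, but for 11 of the 53 genes, against 22.3 percent of all probes. By gene the called probes stood for 3 of 53: Rpl13a with 19 of its 22 probes, Rpl22l1 and Rpl36a. The median difference over the 53 genes was −0.22, against −0.02 over all genes, and 18 genes had positive differences. Without Rpl13a the calls were 2 of 65 probes, or 3.08 percent.

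Rpl13a is a large-subunit protein that is often used as a reference gene and that takes part in translational silencing in human myeloid cells. Its median over the 22 probes was 1.02, 0.96, 1.13, 1.01 and 1.29 in KO ras PD153035 samples, against 2.47, 2.50, 2.08, 1.41 and 2.89 in KO ras samples. All treated samples lay below all untreated ones, of which repeat 4 in run 6 came closest. The 22 differences ran from −1.65 to −0.97 with a median of −1.22, and the 19 called had adjusted p values by limma of 0.00243 to 0.0237. The largest was −1.65 ± 0.31. In KO mock cells the median over the probes was 1.63, 1.14 and 1.67, and in WT ras PD153035 cells 1.47, 1.73, 2.02, 1.47 and 1.88. In WT ras cells, PD153035 gave 20 of 22 negative differences with a median of −0.29, and 0 were called. Whether the PD153035 effect on Rpl13a differs between the genotypes was not tested.

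Rpl22l1 had −0.77, −0.68, −0.70, −0.43 and −0.64 with PD153035, against 0.21, 0.56, 0.52, 0.09 and 0.88 without, and the groups did not overlap. The difference was −1.10 ± 0.30 with an adjusted p of 0.0252 by limma. Rpl36a had −0.34, −0.09, 0.50, 0.61 and 0.10 with PD153035, against 1.96, 1.92, 1.52, 0.44 and 1.17 without, and the groups overlapped through KO ras repeat 4. Its difference was −1.25 ± 0.39 with an adjusted p of 0.0484 by limma. With 1 sample left out, the Rpl22l1 call was lost in 5 of 10 cases, with adjusted p values by limma up to 0.0658, and the Rpl36a call in 7 of 10, up to 0.133. The Rpl13a probe that stands for its gene kept its call in each case, up to 0.0318.

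No KO ras sample without inhibitor lies in run 8, so run and PD153035 cannot be told apart in this comparison. With run as a random block none of the 87 probes was called, and the differences were −1.16 for the Rpl13a probe that stands for its gene (−1.22 without the block), −0.97 for Rpl22l1 and −0.76 for Rpl36a. With signs by label none was called either, while the differences were −1.22 for Rpl13a, −1.10 for Rpl22l1 and −1.25 for Rpl36a, the same as with the signs used. Neither array of disputed dye order is in this comparison, which that setting reaches only through the spread shared by all groups and the dye term. Without KO ras repeat 2 there were 12 calls and without PD153035 repeat 1 there were 13. Keratinocyte markers moved as well: of 25, 3 were called lower, Trp63, Sfn and Jup, and the median difference was −0.72. Their median per sample was 2.02 to 4.67 in KO ras PD153035 and 3.71 to 4.21 in KO ras, all above the pool. Of the other marker lists, the leukocyte and pool marker Cd3g was called higher at 1.78 and the endothelial marker Emcn lower at −1.53. The part of these markers in the result was not tested.

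On the array 12 genes have at least 20 probes, and the others were set beside Rpl13a in this comparison after its values were seen. Actb, with 20 probes, had a median difference of −0.54 and no call, and Gapdh, with 22, had −0.47 and no call. For B2m, with 55 probes, the median was 0.09 with no call, and for Ywhaz, with 40, it was −0.37 with 1 call. Polr2a, with 30 probes, had a median of 0.59 and 5 calls, all higher. None of the other 11 genes had a median as low as that of Rpl13a.

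**Figure D5:**
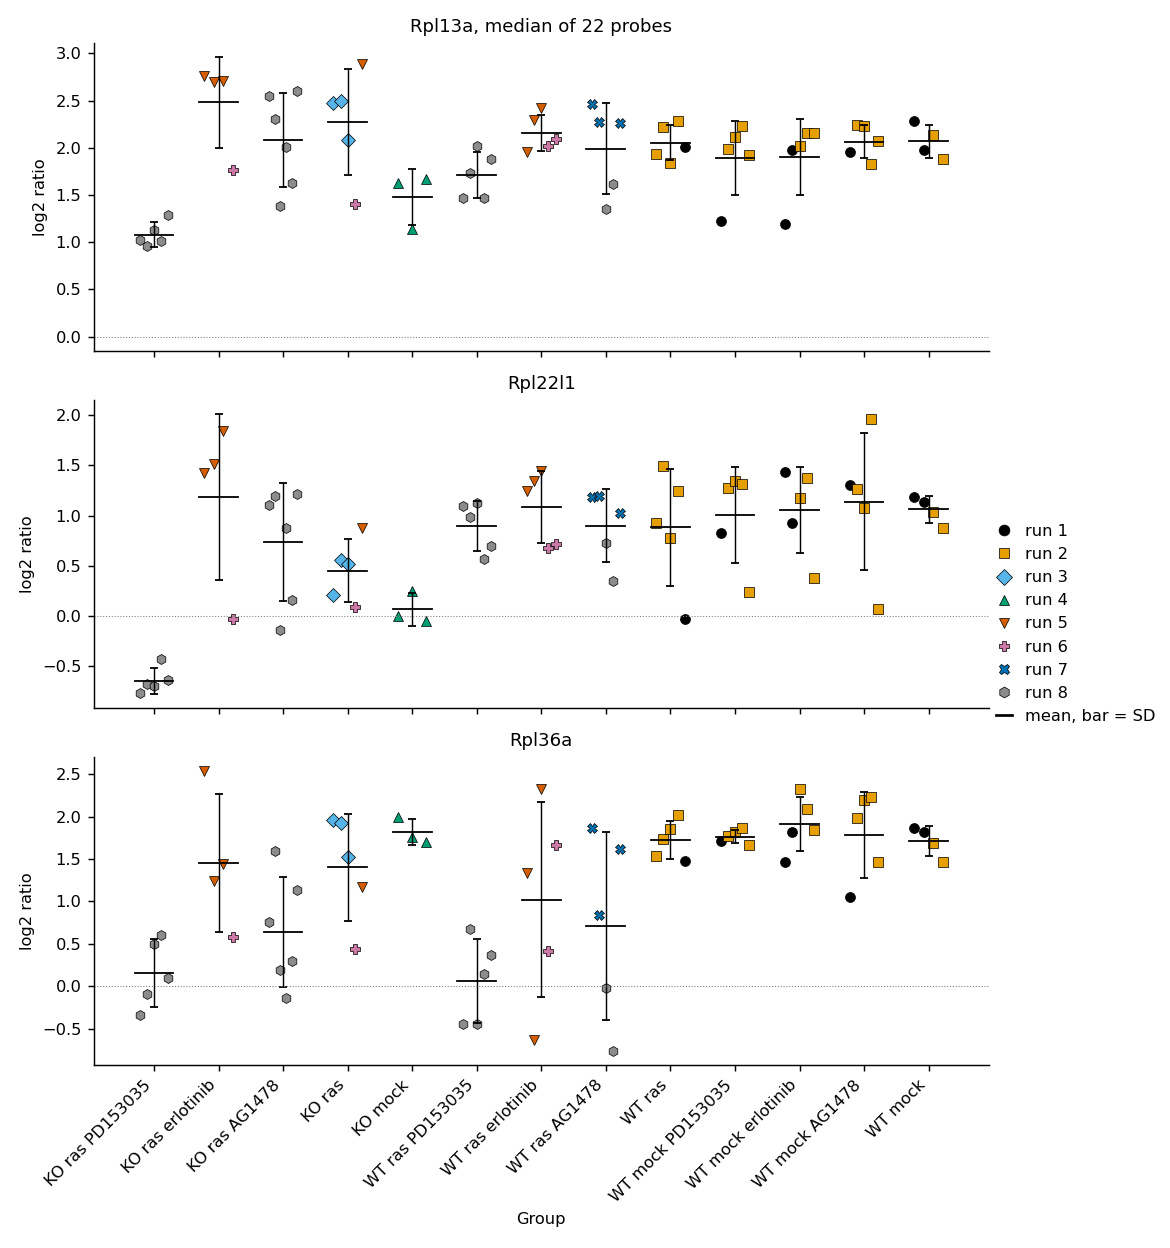
Log2 ratio of sample over reference pool in each sample for Rpl13a (median of 22 probes), Rpl22l1 and Rpl36a, in 13 groups, with shape and colour by run and bars for mean and SD. Rpl13a and Rpl22l1 are lowest in KO ras PD153035, whereas Rpl36a is low in the run 8 samples of several groups.

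The fourth question was whether the 3 inhibitors differ from each other at the same dose and time. There were 9 pairs of inhibitors, 3 in each of the 3 cell backgrounds, and p-values were adjusted over all probes within each pair. In WT mock cells no member was called in any pair, against 0 percent of all probes, and at an unadjusted p under 0.05 by limma there were 1 for AG1478 minus erlotinib, 2 for AG1478 minus PD153035 and 0 for erlotinib minus PD153035, against 3.1, 3.05 and 1.14 percent of all probes. In WT ras cells no member was called either. There the shares of all probes called were 0.897 percent for AG1478 minus erlotinib, 1.29 percent for AG1478 minus PD153035 and 0.176 percent for erlotinib minus PD153035, and in that order 12, 17 and 23 members had an unadjusted p under 0.05 by limma, against 13.5, 17.7 and 9.02 percent of all probes. These counts do not show that the inhibitors act alike: the median confidence interval of a member's difference reached 0.63 to either side. The medians over the 53 genes in WT ras cells were −0.21 for AG1478 minus erlotinib, 0.22 for AG1478 minus PD153035 and 0.46 for erlotinib minus PD153035, against 0, 0.05 and 0.05 over all genes. For AG1478 minus PD153035 the value was −0.11 within run 8, with 2 samples against 5. Erlotinib-treated WT ras samples, in runs 5 and 6, share no run with the others. Run and inhibitor cannot be told apart in those pairs. With run as a random block the medians were −0.22, 0.06 and 0.29 in the order above.

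In KO ras cells AG1478 and PD153035 were compared within a single run. The median difference over the 53 genes was 0.27, against −0.01 over all genes, but −0.23 with signs by label. Of the 87 probes 6 were called, all higher with AG1478, against 0.745 percent of all probes called and 0.53 percent called higher. Without Rpl13a, 2 of 65 probes were called, or 3.08 percent. At an unadjusted p under 0.05 by limma there were 30, for 10 genes, against 9.77 percent. The called probes were 4 Rpl13a probes, Rpl22l1 and 1 Rpl27a probe. Rpl22l1 had 1.11, 1.20, −0.14, 0.88, 0.16 and 1.22 with AG1478, against −0.77, −0.68, −0.70, −0.43 and −0.64 with PD153035. The groups did not overlap, and the difference was 1.38 ± 0.29, with a 95 percent interval of 0.80 to 1.96 and an adjusted p of 0.00765 by limma. It was 1.13 with signs by label, with an adjusted p of 0.0227, and was called when any sample was left out. No keratinocyte marker was called, with 20 of 25 positive and a median of 0.53, and their part was not tested.

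Rpl13a had medians of 2.55, 2.30, 1.38, 2.01, 1.63 and 2.60 with AG1478, against 1.02, 0.96, 1.13, 1.01 and 1.29 with PD153035. The groups did not overlap, all 22 probes had positive differences, and their median was 0.97. The called probe with the largest difference had 1.40, and with signs by label it had 0.35 and was not called. Rpl27a, a large-subunit protein, had 2.46, 1.82, 1.22, 1.91, 1.20 and 1.99 at the called probe with AG1478, against 0.43, 0.26, 0.77, 0.15 and 1.27 with PD153035. The groups overlapped slightly, and the difference was 1.18 ± 0.30 with an adjusted p of 0.0361 by limma. It was 0.13 with signs by label and not called, nor was it called without the arrays of disputed dye order (1.25, adjusted p of 0.0599 by limma). The count of 6 became 1 with signs by label, 11 without the arrays of disputed dye order and 2 without AG1478 repeat 1, 2 or 6 or without PD153035 repeat 1 or 2. It was 3 without PD153035 repeat 3 and 11 without AG1478 repeat 3 or 5.

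Erlotinib minus PD153035 in KO ras cells gave 31 called probes, all higher with erlotinib, against 5.82 percent of all probes called and 3.47 percent called higher. Without Rpl13a, 9 of 65 probes were called, or 13.8 percent. At an unadjusted p under 0.05 by limma there were 43, for 20 genes, against 21.3 percent. The called probes were all 22 Rpl13a probes and 9 probes of 8 other genes, Rpl22l1, Rpl23, Rpl27a, Rpl3, Rpl36a, Rplp0, Rps14 and Rps28. Over all 53 genes, the median difference was 0.51, against 0 over all genes, and 41 genes had positive differences. Without erlotinib repeat 1 the median was 0.26, and after quantile normalization it was 0.23 with 5 probes called. With run as a random block the median was also 0.26. Of 25 keratinocyte markers 4 were called higher, with a median of 0.56, and of 7 melanocyte markers 1 was called higher, with a median of 0.75. Called lower were Cd3g, a leukocyte and pool marker, at −2.36, the fibroblast marker Thy1 at −1.55 and the pool marker Myod1 at −1.63. The part of these markers was not tested. Erlotinib-treated cells lie in runs 5 and 6 and PD153035-treated cells in run 8, so run and inhibitor cannot be told apart, and with run as a random block none of the 87 was called. The differences with that block were 1.53 for the Rpl13a probe that stands for its gene (1.60 without the block), 1.54 for Rpl22l1 and 0.64 to 1.10 for the other called genes. Without erlotinib repeat 3 the count was 18.

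Rpl13a had medians of 2.76, 2.70, 2.71 and 1.76 with erlotinib, and all 22 differences from PD153035 lay between 1.05 and 1.72, with a median of 1.44. Rpl22l1 had 1.42, 1.51, 1.84 and −0.03 with erlotinib, where the low value is the only sample of run 6. It lay above all 5 PD153035 samples, and the difference was 1.84 ± 0.32 with an adjusted p of 0.000262 by limma. Rps28, a small-subunit protein near the mRNA exit, had 1.75, 2.00, 1.75 and 1.49 with erlotinib, against 0.41, 0.44, 0.56, 0.78 and 0.73 with PD153035. These groups did not overlap, and the difference was 1.19 ± 0.33 with an adjusted p of 0.0240 by limma.

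The stalk protein Rplp0 had 1.80, 3.01, 3.79 and 2.22 at the called probe with erlotinib, against 1.29, 1.00, 0.65, 0.89 and 0.82 with PD153035. The groups did not overlap, and the difference was 1.77 ± 0.49 with an adjusted p of 0.0228 by limma. Rpl23 was called at 2 of its 3 probes, each with a difference of 1.32, and Rpl27a at 1 of 3, with 1.15. Rpl3, which shapes the peptidyl transferase centre, differed by 1.24 ± 0.39, over 3 erlotinib samples because 1 had no value. Rpl36a differed by 1.31 and Rps14, on the platform of the small subunit, by 0.90, both close to the threshold with adjusted p values by limma of 0.0463 and 0.0499. Between AG1478 and erlotinib in KO ras cells no member was called, against 0.243 percent of all probes, with 12 at an unadjusted p under 0.05 by limma, against 11.9 percent. The median difference was −0.13 over the 53 genes, against −0.01 over all genes. With signs by label 28 members were called and the median was −0.65. The groups share no run.

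In limma's F test among the 3 inhibitors in KO ras cells, 27 of the 87 probes were called, against 3.89 percent of all probes. Without Rpl13a, 5 of 65 probes were called, or 7.69 percent. At an unadjusted p under 0.05 by that test there were 40, for 18 genes, against 18.2 percent. The called probes were the 22 of Rpl13a and 1 each of Rpl22l1, Rpl23, Rpl27a, Rplp0 and Rps28. The count was 17 without KO ras erlotinib repeat 3 or KO ras PD153035 repeat 1. In WT ras cells 0 were called by limma, against 1.68 percent of all probes, with 20 at an unadjusted p under 0.05, against 17.1 percent. In WT mock cells 0 were called, against 0 percent of all probes, with 0 at an unadjusted p under 0.05, against 2.11 percent.

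The dye order also moved some members. Between reversed and forward arrays, after turning all ratios the same way, 10 of the 87 probes were called, against 20.9 percent of all probes, 9.06 percent higher and 11.9 percent lower, and 20 had an unadjusted p under 0.05, against 33.6 percent. The called probes were 6 Rpl13a probes, Rps15 at −0.47 and Rps21 at −0.41, all lower on reversed arrays, and both Rpsa probes, at 0.51 and 0.63. The count was 2 without KO ras AG1478 repeat 3, 3 without KO ras repeat 4 or KO ras erlotinib repeat 4 and 6 without WT ras AG1478 repeat 4. The dye order was a term in the fit of all comparisons above.

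Other genes of the translation machinery were set beside the ribosomal proteins in some of the comparisons, and their calls in the remaining ones are not given here. In each comparison given, the groups share no run, so run and condition cannot be told apart. With PD153035 in KO ras cells, of 31 ribosome biogenesis factors 3 were called higher and 0 lower, with a median difference of 0.26, against 2.47 percent of all named genes called higher and 2.51 percent called lower. They were the rRNA methyltransferase Nop2 at 1.86, the box C/D protein Nop58 at 1.24 and Bysl at 1.06, a small-subunit processing factor. Of 23 translation factors 4 were called higher, Eef2 at 1.87, Pabpc1 at 2.00, Eif3a at 1.33 and Eif4b at 1.71, and 1 lower, Eif3m at −1.44. Of 44 mitochondrial ribosomal proteins 1 was called, Mrpl15 at −1.53, and their median was −0.03. For the 53 ribosomal protein genes, the counts were 0 higher and 3 lower with a median of −0.22. Nop2, Eef2, Eif4b and Mrpl15 were also called for dye order, at 0.67, 0.80, 0.71 and −0.86. For erlotinib minus PD153035 in KO ras cells, the biogenesis factors Nop2 and Nop58 were called lower, at −2.18 and −0.97. Lower translation factors were Eef2, Eif3a, Eif3c, Eif4b and Eif4g2, at −1.60, −1.29, −1.45, −1.76 and −1.84. There 3.98 percent of all named genes were called higher and 2.29 percent lower.

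With erlotinib in WT ras cells, 2 ribosomal protein genes were called higher and 0 lower, with a median difference of 0.30, against 2.76 percent of all named genes called higher and 1.09 percent called lower. The biogenesis factors had 0 higher and 2 lower, Nop2 at −1.56 and Mybbp1a at −1.35, with a median of −0.33. The translation factors had 0 higher and 3 lower, Eif5a at −1.34, Pabpc1 at −1.87 and Naca at −1.07, with a median of −0.54. The mitochondrial ribosomal proteins had 1 higher, Mrpl54 at 1.02, with a median of 0.28. In KO minus WT mock cells, 2 biogenesis factors were lower, Nop2 at −2.06 and Npm1 at −1.72, and 2 translation factors, Eef2 at −2.22 and Eif2s3x at −1.34. There 0.856 percent of all named genes were called higher and 0.38 percent lower. The medians of both lists were −0.55 and −0.52, against 0.06 for the ribosomal protein genes. Of 25 keratinocyte markers, Krt14, Sprr1a and Krt10 were called higher in that comparison, by 3.09, 2.65 and 2.37. The median over the 25 per sample overlapped between the groups, at 2.76 to 5.38 in KO mock and 2.44 to 4.14 in WT mock. The part of these markers was not tested.

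Around the group means, the members varied together weakly. The median correlation between residuals was 0.18 over 946 pairs of the 44 ribosomal protein genes with a value on every array, with 73.7 percent of pairs positive. It was 0.26 for 24 biogenesis factors, 0.13 for 22 translation factors, 0.10 for 39 mitochondrial ribosomal proteins, 0.30 for 25 keratinocyte markers and 0.01 for all named genes. Rpl29, Rpl21 and Rps19 had the lowest median correlation with the other members, at −0.15, −0.12 and −0.06, and Rpl38, Rps28, Rps29 and Rpl37a the highest, each at 0.34. The points share arrays and runs, so these values are a description.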

How the data were processed

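Each array compared RNA of 1 sample with the universal reference RNA in 2 colours. The deposited table holds 1 log ratio per probe and array, taken as log2 from its spread because the base is not stated, and already centred, with array medians between −0.072 and 0.067. Scanning and normalization are not given in the sources used here. Of 63 arrays, 12 had their ratios inverted so that all read sample over reference, going by the sign of the correlation with the median forward array. For 2 arrays this went against the label. The 2 WT mock repeat 1 arrays (r = 0.834) were averaged, which left 62 samples. They were a forward array of run 1 and a reversed array of run 2, and their average was counted in run 1.

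A model of 13 group means and a dye-order term was fitted to 28049 probes with limma 3.58.1 in R 4.3.3, and p-values were adjusted by Benjamini-Hochberg over all probes of a comparison. Testing required a value on 60 percent or more of each compared group's arrays. A new run began where experiment numbers jumped by more than 100. Symbols came from the platform annotation, with 20925 probes naming 1 gene, 159 several and 6965 none. Where a gene had several probes, the one with most values stood for it, and among probes with equally many the first in the table.

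Named genes were all called probes of a comparison (at most 10 per direction), those with extreme means or ranges, a list by role, and relatives with their parents. Members and lists were chosen with earlier results of these data known. The fit was checked on simulated data. Precision is limited by 3 to 6 samples per group. Within 16 comparisons, same-numbered samples did not deviate together, with 0 comparisons where every correlation passed 0.1, so numbers were not used to pair samples. Alternatives covered the dye term, signs, scaling, filters, weights, runs and left-out samples.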

Additional observations from a re-analysis of the deposited data

Results flagged for a closer look

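In 16 of 179 sets of values, of genes named above within groups of 4 to 6 samples, the highest or lowest sample stood apart from the nearest other. Chance flags about 1 in 20 groups. The Rpl13a median was 1.76 in KO ras erlotinib repeat 4, where the nearest other sample had 2.70, and 1.19 in WT mock erlotinib repeat 1, where it had 1.98. KO ras erlotinib repeat 4, the group's only sample in run 6, also stood apart for Rpl17, with 0.69 against 1.76. WT mock erlotinib repeat 1 also stood apart for Rpl27a, with 0.24 against 1.13.

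Rpl37a stood apart in 3 groups, with 0.88 in KO ras PD153035 repeat 4 (nearest 0.19), 0.45 in WT ras erlotinib repeat 5 (nearest 1.39) and 1.77 in WT mock AG1478 repeat 4 (nearest 0.79). Rplp0 had 2.27 in WT ras PD153035 repeat 3 (nearest 1.05) and −0.24 in WT ras repeat 3 (nearest 1.58). Rpl7a had 0.73 in KO ras AG1478 repeat 5 (nearest 0.96) and 0.30 in WT ras repeat 4 (nearest 0.90). Rpl23 had 3.27 at 1 of its probes in KO ras repeat 5 (nearest 1.70). In mock cells, Rpl3 had 0.99 in AG1478 repeat 5 (nearest 0.60), Rps28 0.44 in PD153035 repeat 1 (nearest 0.92), Rps3 0.92 in erlotinib repeat 3 (nearest 1.45) and Rps14 0.29 in WT mock repeat 1 (nearest 0.88).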

How the results depend on the processing

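Values are ribosomal protein probes called. Counts under other settings, here and above, stand without the share of all probes called under the same setting. Whether a changed count is particular to the members is therefore not shown. No result changed direction with a call on both sides, and median centring and no filter moved no count by over 1.5 times. The cause of the changes below was not tested.

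With array weights the counts were 4 for ras in KO, 11 for KO minus WT in mock, 1 for AG1478 and 5 for erlotinib in WT ras, 5 for AG1478, 14 for erlotinib and 32 for PD153035 in KO ras, 4, 7 and 11 for KO minus WT with AG1478, erlotinib and PD153035, 1 for the ras effect KO minus WT and 5 for dye order. For pairs they were 1 (AG1478 minus erlotinib), 10 (AG1478 minus PD153035) and 8 (erlotinib minus PD153035) in WT ras and 13, 25 and 50 in KO ras, and for F tests 57 over all groups, 15 in WT ras and 48 in KO ras.

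With forward arrays alone they were 4 for ras in KO, 2 and 1 for KO minus WT in mock and ras, 1, 0 and 0 for AG1478, erlotinib and PD153035 in WT ras, 2 for erlotinib in KO ras and 13 for AG1478 minus PD153035 in KO ras. Without a dye term, erlotinib in WT ras had 1. Over probes with a value on every array, erlotinib in WT ras had 4, KO minus WT with erlotinib 0 and AG1478 minus PD153035 in KO ras 11. The Rpl23 probe called between KO and WT with erlotinib lacks a value on 1 array, so it was left out there and not tested. With repeat 1 arrays apart, KO minus WT in mock had 1.

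After quantile normalization the counts were 3 for ras in KO, 2 for KO minus WT in mock, 0 for erlotinib in WT ras, 5 and 0 for KO minus WT with AG1478 and erlotinib, 5 for dye order, 1 for AG1478 minus PD153035 in WT ras, 5 for erlotinib minus PD153035 in KO ras and 10 among inhibitors in KO ras.

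With run as a fixed block KO minus WT had 1 with AG1478 and 2 with PD153035, and AG1478 minus PD153035 had 1 in WT ras and 13 in KO ras. As a random block the counts were 0 for ras in KO, for erlotinib and PD153035 in WT ras, for PD153035 in KO ras, for KO minus WT with AG1478 and for erlotinib minus PD153035 in KO ras, 1 for dye order, 13 for AG1478 minus PD153035 in KO ras, 3 over all groups and 10 among inhibitors in KO ras.

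With signs by label they were 0 for KO minus WT with erlotinib, ras in KO, PD153035 in KO ras and erlotinib in WT ras, 12 for AG1478 in KO ras, 5 for KO minus WT with AG1478, 28, 1 and 5 for AG1478 minus erlotinib, AG1478 minus PD153035 and erlotinib minus PD153035 in KO ras, and 9 over all groups. Without the arrays of disputed dye order, dye order had 2 and AG1478 minus PD153035 in KO ras 11.

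Median differences over the 53 genes near 0 turned sign under several settings. Those that did so by more than the spread between samples were −0.39 with signs by label for AG1478 in KO ras, −0.23 with signs by label for AG1478 minus PD153035 in KO ras, 0.19 with run as a random block and 0.29 with it as a fixed block for KO minus WT with AG1478 and −0.10 with the fixed block for AG1478 minus PD153035 in WT ras.

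Same-numbered samples were not shown to be paired. With a replicate block, dye order had 0, AG1478 minus PD153035 in KO ras 2, PD153035 in KO ras 21, and erlotinib minus PD153035 in KO ras 30.

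Leaving out 1 sample at a time gave 0 to 3 for ras in KO, 0 to 1 for KO minus WT in mock and in ras, 0 to 1 for AG1478, 0 to 4 for erlotinib and 0 to 2 for PD153035 in WT ras, 0 to 2 for erlotinib and 12 to 24 for PD153035 in KO ras. It gave 0 to 4, 0 to 1 and 1 to 2 for KO minus WT with AG1478, erlotinib and PD153035, 2 to 14 for dye order, 0 to 2 for AG1478 minus PD153035 in WT ras, and 0 to 1, 2 to 11 and 18 to 31 for the pairs in KO ras. The F tests gave 23 to 39 over all groups, 0 to 2 in WT ras and 17 to 30 in KO ras. The call of Rpl22l1 between KO and WT under PD153035 was kept under each alternative. With 3 to 6 samples per group, a run that goes with most groups and 2 arrays of disputed dye order, single calls near the threshold rest on few values.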
